A study of Homo sapiens with 16 samples.

Results

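A group of 10 genes of the inflammatory response, out of 11963 genes on the array, was read in human hepatoma cells through 12 of 22283 probe sets. They were the chemokine genes CXCL8, CXCL1, CXCL2, CXCL3, CCL20 and CCL2, the cytokine gene LIF, and the NF-kappaB genes NFKBIA, NFKB1 and TNFAIP3. The probe sets were chosen by the gene symbol that the platform annotation gave them, in all 16 arrays. The genes themselves were picked with earlier results of these arrays in view, without a record of which contrast guided the choice. Their levels and differences are therefore a description, and no p-value is printed for a member. Members are also counted below against p thresholds and given with intervals. Those counts and intervals describe genes picked in this way and are not a test of them.

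The cells were HepG2, an established liver cancer line that keeps many functions of hepatocytes. One set of cultures was transduced with a recombinant adenovirus carrying GPI-PLD, a phospholipase D that cuts the glycosylphosphatidylinositol anchors of membrane proteins, and the other with an adenovirus carrying LacZ, the bacterial beta-galactosidase. The groups were GPI-PLD at 12 h, LacZ at 12 h, GPI-PLD at 6 h and LacZ at 6 h, with 4 arrays each and 10 microgram of total RNA per array. The labels give the times as hours of culture of the transduced cells. All 16 arrays came from cells that had received a virus, so no comparison with untransduced cells was made.

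NF-kappaB is a family of transcription factors held in the cytoplasm by inhibitors such as the product of NFKBIA. Signals from TNF, IL-1 or Toll-like receptors activate a kinase complex that has the inhibitor destroyed, and the freed factor enters the nucleus and switches on chemokine genes. Among its targets are also NFKBIA itself and TNFAIP3, whose products shut the pathway down again, and NFKB1, which encodes the precursor of the p50 subunit. CXCL8, CXCL1, CXCL2 and CXCL3 attract neutrophils, CCL20 attracts cells with the receptor CCR6, CCL2 attracts monocytes, and LIF acts on hepatocytes through the LIF receptor and gp130 to induce acute phase proteins.

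The promoters are shown first because 6 of the members carry the same kind of sequence there. RefSeq promoters (build GRCh38.p14, a window around each gene's start) were matched by symbol for 8 of the 10 members, in 9 windows since NFKB1 has 2. A pair of 9-letter forms of the kappaB site, which NF-kappaB binds, were searched on both strands, GGAANTTCC and GGGANNTTC. They overlap where both match. AP-1 sites were searched as TGANTCA, C/EBP sites as TTGCNNAA and the TATA box as TATAAA. In the sequences below, written 5′ to 3′ along the gene, capitals mark every match to any of the 5 motifs.
CXCL8, chr4:73740419-73740568, plus strand: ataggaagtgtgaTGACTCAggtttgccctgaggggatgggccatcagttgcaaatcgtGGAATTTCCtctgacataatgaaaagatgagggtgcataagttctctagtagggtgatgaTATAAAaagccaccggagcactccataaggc
CCL20, chr2:227813692-227813841, plus strand: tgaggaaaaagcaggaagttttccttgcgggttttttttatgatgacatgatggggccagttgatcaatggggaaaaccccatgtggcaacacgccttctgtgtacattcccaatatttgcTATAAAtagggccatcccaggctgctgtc
NFKBIA, chr14:35404750-35404899, minus strand: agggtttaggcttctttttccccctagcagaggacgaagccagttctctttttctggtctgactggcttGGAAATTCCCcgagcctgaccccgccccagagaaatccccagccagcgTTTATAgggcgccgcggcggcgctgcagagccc
CXCL1, chr4:73869300-73869338, plus strand: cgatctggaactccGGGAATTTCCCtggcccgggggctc
CXCL2, chr4:74099249-74099287, minus strand: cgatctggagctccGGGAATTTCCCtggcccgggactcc
CXCL3, chr4:74038744-74038782, minus strand: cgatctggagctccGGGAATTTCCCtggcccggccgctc

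The form GGAANTTCC was found in CXCL8, CXCL1, CXCL2, CXCL3, NFKBIA and in 1 of the 2 NFKB1 promoters. It occurs in 0.965% of 35116 RefSeq promoters of the same length. That share is given for scale and not as a test, since the members were chosen as chemokine and NF-kappaB genes. CXCL1, CXCL2 and CXCL3 also have near-identical letters there. The match started 91 bases before the start of CXCL8, 78 bases before that of CXCL1 and CXCL3, 77 before CXCL2, 81 before NFKBIA and 48 before NFKB1. The looser form GGGANNTTC, held by 4.18% of the promoters, was found in CXCL1, CXCL2, CXCL3, NFKBIA and NFKB1 and also in TNFAIP3. CCL20 matched neither form in these letters, and a TATA box lay 29 bases before its start. Of these promoters CXCL8 alone matched the AP-1 motif (7.71% of promoters), 137 bases before its start. CXCL2 alone matched the C/EBP motif (10.5%), and TATAAA (11.5%) was found in CXCL8 and CCL20 and on the other strand in NFKBIA. A match is a description of the letters and not a sign of binding. The forms are narrow, and sites with other letters were not searched. A promoter without a match, such as CCL20 for the kappaB forms, may therefore still hold a site.

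The cells carried the markers of their label. Albumin (ALB) had a mean signal of 85990 and alpha-fetoprotein (AFP) 72933 over the 16 arrays. The summed signal of the 10 hepatocyte markers on the array lay at 458360 to 519924 in GPI-PLD and 446906 to 489178 in LacZ arrays at 12 h, and at 443054 to 490396 in GPI-PLD and 422829 to 469254 in LacZ arrays at 6 h. The summed signal of 9 leukocyte markers lay at 9644 to 13543, 11004 to 14740, 9461 to 12005 and 6785 to 12913 in the same order of groups. It came mostly from lysozyme (LYZ, mean 9632), followed by CD3E (434), while the pan-leukocyte marker PTPRC (111) and the monocyte marker CD14 (65.3) were dim. Of 8 fibroblast or stellate markers the smooth muscle actin gene ACTA2 (2476) and the collagen gene COL1A1 (773.5) were the brightest, and the list summed to 4380 to 5076, 4280 to 4664, 3980 to 4942 and 4537 to 5177. Of 6 endothelial markers PECAM1 (286) and TEK (137.7) were the brightest, with sums of 563 to 906, 718 to 891, 219 to 659 and 261 to 720. Their part in the results was not tested. Since RNA came from whole cultures, more transcript per cell and more cells that make it cannot be told apart. The GPLD1 transcript, which encodes GPI-PLD, differed between the viruses by -0.22 ± 0.30 (log2, SE) at 6 h and 0.18 ± 0.30 at 12 h on the probe set 206264_at, 1 of 5 for this gene. The brightest, 217405_x_at, gave 0.02 ± 0.32 and 0.12 ± 0.32. On the 3 dimmer sets the values were 0.37 ± 0.44, 0.60 ± 0.22 and -0.08 ± 0.38 at 6 h, and -0.33 ± 0.44, 0.07 ± 0.22 and -0.18 ± 0.38 at 12 h. Arrays of the GPI-PLD 12 h group had within-group mean correlations of 0.938 to 0.939, against 0.948 to 0.958 in the other groups.

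The chemokine gene CCL20 and the cytokine gene LIF stood above their 6 h level at 12 h in the cells of either virus, without overlap of the arrays. The chemokine gene CXCL8 did so in GPI-PLD cells, while in LacZ cells its 12 h and 6 h arrays overlapped. The 3 NF-kappaB genes were all expressed, and NFKBIA had lower means at 12 h than at 6 h while NFKB1 had slightly higher means at 12 h, within the spread of its arrays, and the probe sets of TNFAIP3 had no common direction. The other chemokine genes, CXCL1, CXCL2, CXCL3 and CCL2, had dim probe sets in every group. Signals are MAS5 values on a linear scale. Differences are log2 differences of signal + 63, which understate the change of dim probe sets, and they come from a limma fit of 8102 genes. A gene entered that fit if its brightest probe set reached a mean signal of about 188.1, and 6 of the 10 members did. A gene counts as called where its adjusted p (Benjamini-Hochberg, over all 8102 genes) was under 0.05.

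**Figure D1:**
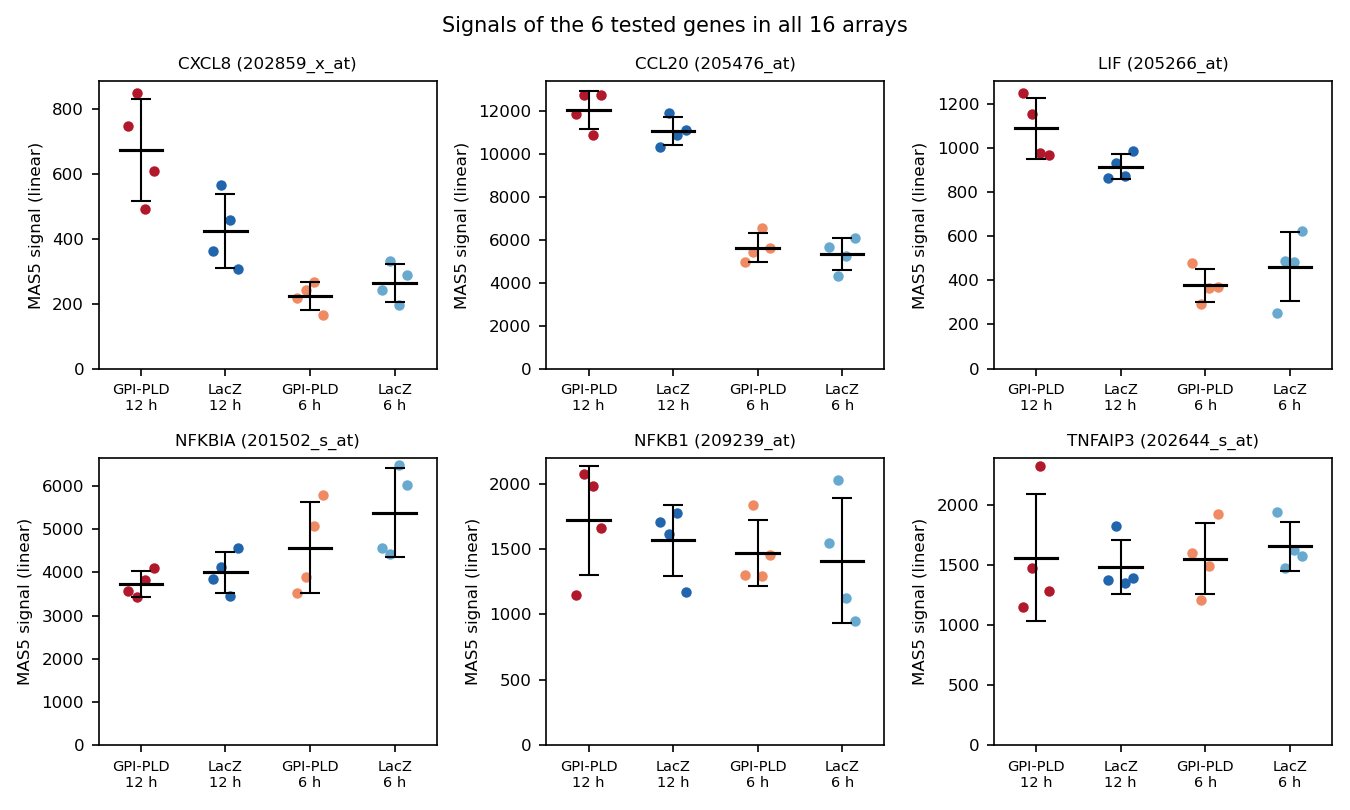
MAS5 signal on a linear axis (y) of CXCL8, CCL20, LIF, NFKBIA, NFKB1 and TNFAIP3 in each of the 16 arrays, by group (x). Points are arrays, wide lines group means and bars SDs (n = 4). For CCL20 the 12 h arrays run from 10340.7 to 12762.5 and the 6 h arrays from 4317.9 to 6538.1, while the groups of NFKB1 overlap.

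CCL20 was the brightest member, above 96.7% of all probe sets outside the controls. Its signal was 11858.5, 12752.8, 10900.5 and 12762.5 in the GPI-PLD arrays of 12 h and 4948.1, 5443.2, 6538.1 and 5614.3 in those of 6 h. In LacZ cells it was 10340.7, 11902, 10878.8 and 11130.6 at 12 h, against 5657, 4317.9, 5251 and 6072.3 at 6 h. Every 12 h array lay above every 6 h array, in the cells of either virus. The mean was 12069 ± 887 at 12 h and 5636 ± 664 at 6 h in GPI-PLD cells (SD, n = 4 each), a log2 difference of 1.09 ± 0.10 (SE, 95% interval 0.89 to 1.30) or 2.13-fold. In LacZ cells the means were 11063 ± 649 and 5325 ± 750, a log2 difference of 1.06 ± 0.10 (0.85 to 1.26) or 2.08-fold. The course was close to equal under the viruses, and the difference of the GPI-PLD effect between 12 h and 6 h was 0.04 ± 0.14 (-0.25 to 0.33).

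LIF, a cytokine of the interleukin-6 family, read 1252.9, 1157.4, 979.4 and 969.3 in the GPI-PLD arrays of 12 h and 479.4, 293.9, 367.1 and 368.5 in those of 6 h. In LacZ cells LIF read 866.7, 932, 874.1 and 988.5 at 12 h, against 252.4, 490, 482.3 and 626.4 at 6 h. The times did not overlap in either virus, and the 6 h LacZ arrays were the most spread. The log2 difference was 1.40 ± 0.20 (0.99 to 1.81), or 2.63-fold, in GPI-PLD cells and 0.95 ± 0.20 (0.54 to 1.36), or 1.93-fold, in LacZ cells. Between the viruses LIF stood at 0.23 ± 0.20 at 12 h and -0.22 ± 0.20 at 6 h, and with single arrays left out the 6 h value ranged from -0.44 to -0.07. The difference of those effects was 0.45 ± 0.28, with an interval of -0.13 to 1.03.

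CXCL8, which encodes interleukin-8, has 2 probe sets. The brighter one, 202859_x_at, whose suffix marks probes that may also match other transcripts, read 746.5, 849.8, 491.5 and 607.6 in the GPI-PLD arrays of 12 h and 216.1, 242.6, 266 and 166 in those of 6 h. In LacZ cells it read 363.4, 565.5, 457.7 and 306.9 at 12 h, against 241.8, 332, 194.2 and 287.8 at 6 h. The times were separate in GPI-PLD cells, whereas in LacZ cells the lowest 12 h array lay below the highest 6 h array. CXCL8 differed with time by 1.35 ± 0.25 (0.85 to 1.86), or 2.56-fold, in GPI-PLD cells and by 0.56 ± 0.25 (0.05 to 1.07), or 1.48-fold, in LacZ cells. At 12 h the mean was 674 ± 157 in GPI-PLD and 423 ± 113 in LacZ cells, a log2 difference of 0.60 ± 0.25 (0.10 to 1.11), and the arrays of the viruses overlapped. At 6 h the means were 223 ± 42.9 and 264 ± 59.3, or -0.19 ± 0.25.

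The second CXCL8 probe set, 211506_s_at, was dimmer and did not enter the gene fit. It read 387.5, 287.9, 42.5 and 521.4 in the GPI-PLD arrays of 12 h and 21.6, 78, 74 and 37.7 in those of 6 h. In LacZ cells it read 164, 30, 14.8 and 225.6 at 12 h, against 17.2, 19.7, 9.9 and 71.5 at 6 h. GPI-PLD 12 h replicate 3 and LacZ 12 h replicates 2 and 3 lay within the 6 h range, so the groups overlapped. Fitted with all 22215 non-control probe sets, it differed with time by 1.47 ± 0.48 in GPI-PLD and 0.72 ± 0.48 in LacZ cells, and between the viruses by 1.09 ± 0.48 at 12 h and 0.34 ± 0.48 at 6 h. Both CXCL8 probe sets thus gave the higher mean at 12 h in both viruses and the higher 12 h mean in GPI-PLD cells. Their signs between the viruses at 6 h were opposite.

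**Figure D2:**
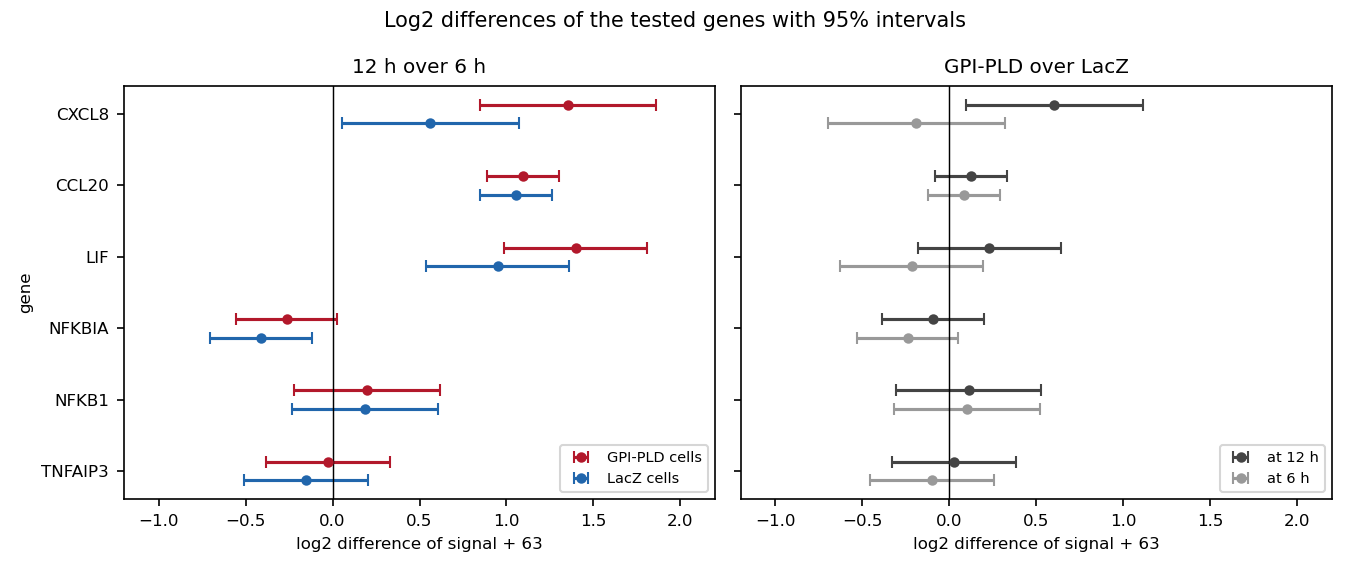
Log2 difference of signal + 63 (x) for the 6 tested genes (y), as 12 h over 6 h in GPI-PLD and LacZ cells (left) and as GPI-PLD over LacZ at 12 h and 6 h (right). Points are limma estimates and bars 95% intervals (n = 4 arrays per group). CCL20 and LIF lie above 0 with time in either virus (CCL20 at 1.09 and 1.06). In the right panel the 12 h interval of CXCL8 runs from 0.10 to 1.11, and CXCL8 was not called there. The intervals are not adjusted for the number of genes.

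NFKBIA, which encodes the inhibitor IkappaB-alpha, was bright in every group. Its signal was 3578.6, 3433, 3814.6 and 4105.1 in the GPI-PLD arrays of 12 h and 3530.2, 3902, 5066.5 and 5796.5 in those of 6 h. In LacZ cells it was 3845.7, 4114.1, 3455 and 4574.9 at 12 h, against 4573.6, 4430.6, 6495.7 and 6024.2 at 6 h. The 12 h arrays sat at the low end of the range and overlapped the 6 h arrays in both viruses. The log2 difference with time was -0.26 ± 0.14 (-0.56 to 0.03) in GPI-PLD and -0.41 ± 0.14 (-0.70 to -0.12) in LacZ cells, opposite in sign to CCL20 and LIF. Between the viruses NFKBIA stood at -0.09 ± 0.14 at 12 h and -0.24 ± 0.14 at 6 h.

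NFKB1, the gene of p105 and p50, read 1150.9, 2075.4, 1985.3 and 1662.9 in the GPI-PLD arrays of 12 h and 1299.8, 1834.9, 1295 and 1453.3 in those of 6 h. LacZ cells gave 1707.8, 1617.6, 1774.8 and 1170.5 at 12 h, against 1544.5, 2029.1, 1125.1 and 949.4 at 6 h. All 4 groups overlapped for NFKB1. Its log2 difference with time was 0.20 ± 0.20 in GPI-PLD and 0.18 ± 0.20 in LacZ cells, and its difference between the viruses 0.11 ± 0.20 at 12 h and 0.10 ± 0.20 at 6 h. The 95% interval of the time difference reached 0.62 in GPI-PLD and 0.60 in LacZ cells, so a change of that size was within what these arrays allow.

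TNFAIP3, which encodes the ubiquitin-editing enzyme A20, has 2 probe sets that did not follow the same course. The brighter one, 202644_s_at, read 1154.2, 1475.4, 2330.7 and 1289.4 in the GPI-PLD arrays of 12 h and 1600.4, 1210.4, 1490.2 and 1925.2 in those of 6 h. It read 1375.5, 1824.4, 1353.5 and 1394.3 in the LacZ arrays of 12 h and 1945.7, 1478.8, 1628.9 and 1577.6 in those of 6 h. The groups overlapped, and the log2 difference with time was -0.03 ± 0.17 in GPI-PLD and -0.15 ± 0.17 in LacZ cells. The other set, 202643_s_at, averaged 741 ± 149 at 12 h and 873 ± 144 at 6 h in GPI-PLD cells. In LacZ cells it averaged 948 ± 158 at 12 h, with all 4 arrays (783.8 to 1142.6) above the 6 h arrays (467.3 to 777.6, mean 657 ± 133). Its log2 difference with time was -0.23 ± 0.18 in GPI-PLD and 0.50 ± 0.18 in LacZ cells. Between the viruses 202643_s_at stood at 0.385 ± 0.183 at 6 h and -0.337 ± 0.183 at 12 h, and the difference of those effects was -0.721 ± 0.259. On the brighter set the same values were -0.099 ± 0.172, 0.028 ± 0.172 and 0.127 ± 0.243. No single direction can thus be given for TNFAIP3, with time or between the viruses.

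**Figure D3:**
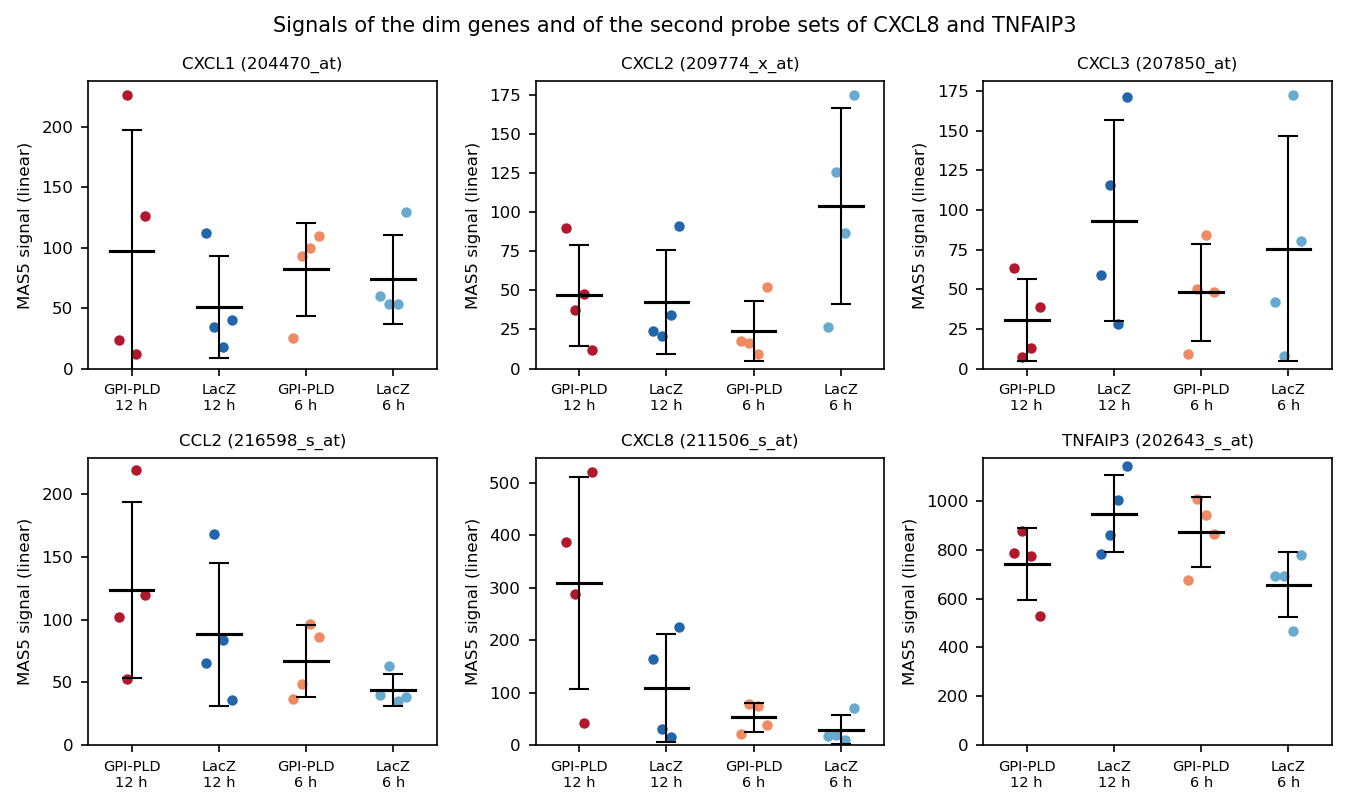
MAS5 signal on a linear axis (y) of the dim genes CXCL1, CXCL2, CXCL3 and CCL2 and of the second probe sets of CXCL8 and TNFAIP3 in each array, by group (x). Points are arrays, wide lines group means and bars SDs (n = 4), cut at 0. The CXCL1 arrays run from 12.3 to 226.1 with groups that overlap, and the 4 LacZ 12 h arrays of TNFAIP3 lie above the LacZ 6 h arrays.

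The 4 members that missed the filter had arrays scattered around the pseudocount of 63. CXCL1 read 23.7, 226.1, 12.3 and 126 in GPI-PLD cells at 12 h, 112.4, 34.3, 17.5 and 39.8 in LacZ cells at 12 h, 25.5, 93.2, 99.8 and 109.6 in GPI-PLD cells at 6 h, and 60, 53.1, 53.6 and 129.2 in LacZ cells at 6 h. CXCL2 ran from 12 to 90.1 in GPI-PLD and from 20.5 to 91.4 in LacZ cells at 12 h, and from 9.6 to 51.8 in GPI-PLD and from 26.8 to 175 in LacZ cells at 6 h. CXCL3 ran from 7 to 63.6 and from 27.9 to 171.1 in GPI-PLD and LacZ cells at 12 h, and from 8.9 to 84.4 and from 7.7 to 172.7 at 6 h. For these 3 genes every pair of groups compared overlapped, and CXCL1 was below 63 on 9 of 16 arrays, CXCL2 on 11 and CXCL3 on 10.

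CCL2, the monocyte attractant, averaged 124 ± 70.2 in GPI-PLD and 88.2 ± 57.0 in LacZ cells at 12 h, and 67.1 ± 28.6 in GPI-PLD and 43.9 ± 12.7 in LacZ cells at 6 h. It was below 63 on 8 of 16 arrays, and its groups overlapped. In the fit of all probe sets its log2 difference with time was 0.47 ± 0.32 in GPI-PLD and 0.44 ± 0.32 in LacZ cells. The same differences were -0.03 ± 0.39 and -0.29 ± 0.39 for CXCL1, 0.31 ± 0.31 and -0.62 ± 0.31 for CXCL2, and -0.24 ± 0.36 and 0.22 ± 0.36 for CXCL3. Between the viruses CXCL2 stood at -0.87 ± 0.31 at 6 h and 0.06 ± 0.31 at 12 h. No direction is given for these 4 genes.

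CXCL8, CXCL1, CXCL3 and CXCL2 lie in the same cluster on chromosome 4, where RefSeq places 9 protein-coding genes in the order CXCL8, CXCL6, PF4V1, CXCL1, PF4, PPBP, CXCL5, CXCL3 and CXCL2. Of these 9 genes CXCL8 was the 1 that passed the filter. The other 8 had probe sets with means between 25.3 (PF4V1) and 182.1 (PF4). The near-identical letters around the kappaB match of CXCL1, CXCL2 and CXCL3, printed above, accompany dim probe sets of all 3 genes, so their promoters could not be set against a measured course.

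Counted over the tested members, 3 of 6 (CXCL8, CCL20 and LIF) were called higher at 12 h in GPI-PLD cells, where 4.6% of the 8102 genes were, and 0 were called lower, where 5.07% were. In LacZ cells 2 of 6 (CCL20 and LIF) were called higher, where 3.64% of genes were, and 0 lower, where 3.25% were. At unadjusted p under 0.05 limma counted 3 members in GPI-PLD cells, where 22.8% of all genes passed in either direction, and 4 in LacZ cells (CXCL8, CCL20 and LIF higher, NFKBIA lower), where 20.2% did. Plain eBayes moderation called 3 members in GPI-PLD cells (7.95% of all genes) and 2 in LacZ cells (5.15%). The median log2 difference was 0.65 in GPI-PLD and 0.37 in LacZ cells over the 6 members, against 0.01 and 0.01 over all genes. These counts describe genes that were picked with such results known.

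GPI-PLD over LacZ gave 0 called members by limma at 6 h, at 12 h and averaged over both times, where 0% of all genes were called in each. At unadjusted p under 0.05 the members counted 0 of 6 at 6 h (4.64% of all genes), 1 of 6 at 12 h (CXCL8, 7.21% of all genes) and 0 of 6 for the average (4.2%). The difference of the GPI-PLD effect between the times gave 0 called members, where 0.0123% of genes were called, and 1 of 6 (CXCL8) at unadjusted p under 0.05, where 7.53% of genes were. Plain eBayes moderation also gave 0 called members in these 4 contrasts. Of all 8102 genes it called 2 at 6 h and 0 in each of the others. Member medians were -0.14 at 6 h and 0.12 at 12 h. The average over both times was 0.21 ± 0.17 for CXCL8, 0.10 ± 0.07 for CCL20, 0.01 ± 0.14 for LIF, -0.17 ± 0.10 for NFKBIA, 0.11 ± 0.14 for NFKB1 and -0.04 ± 0.12 for TNFAIP3. The time and virus contrasts share arrays, so they are given side by side and not set against each other.

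Other genes of these pathways were read from 8 lists of 160 genes that left the members out, with 139 genes on the array and 86 tested. With time 10 of 86 were called higher in GPI-PLD cells, where 4.6% of all genes were, and 0 lower, where 5.07% were. In LacZ cells 13 were called higher (3.64% of all genes) and 0 lower (3.25%). These shares over all genes also apply to the counts by list below. At unadjusted p under 0.05 by limma the shares with time were 22.8% in GPI-PLD and 20.2% in LacZ cells. The median log2 difference of the 86 genes was 0.15 in GPI-PLD and 0.14 in LacZ cells, against 0.01 over all genes in both. Between the viruses 0 were called by limma at 6 h, at 12 h or averaged, with 8, 9 and 5 of 86 at unadjusted p under 0.05, where 4.64%, 7.21% and 4.2% of all genes passed. The lists were made with results of these arrays known, and some genes stand in more than 1.

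The smallest adjusted p among them was that of IER3, an NF-kappaB target that protects cells from death. IER3 rose with time in GPI-PLD cells (27430 at 12 h, 10430 at 6 h, log2 1.39 ± 0.09, adjusted p 1.98e-10) and in LacZ cells (24570 and 10650, 1.20 ± 0.09, adjusted p 2.28e-09). ICAM1, the leukocyte adhesion molecule, rose in GPI-PLD cells (0.41 ± 0.11, adjusted p 0.0148) and stood at 0.34 ± 0.11 in LacZ cells. BCL2L1, a survival factor, rose in LacZ cells (0.68 ± 0.15, adjusted p 0.00664) and stood at -0.14 ± 0.15 in GPI-PLD cells. The differences between the viruses in these time effects did not pass by limma (BCL2L1 -0.82 ± 0.22, adjusted p 0.376, and ICAM1 0.08 ± 0.15, adjusted p 0.927). Of the 20 tested target genes, 2 rose in each virus.

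Among 8 tested TNF, IL-1 and Toll-like receptor genes 3 rose in each virus. TNFRSF10B, a death receptor for TRAIL, rose by 0.66 ± 0.08 in GPI-PLD cells (adjusted p 2.87e-06) and by 0.79 ± 0.08 in LacZ cells (adjusted p 1.71e-07). TNFRSF1A, the main TNF receptor, rose in LacZ cells by 0.78 ± 0.12 (2794 at 12 h and 1599 at 6 h, adjusted p 0.000131).

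Among 16 tested subunits and kinases IKBKG, the regulatory subunit of the IkappaB kinase, rose in GPI-PLD cells (1984 at 12 h and 1212 at 6 h, 0.68 ± 0.13, adjusted p 0.000781) and stood at 0.38 ± 0.13 in LacZ cells. RELA, the p65 subunit, rose in LacZ cells (1985 and 1291, 0.59 ± 0.12, adjusted p 0.00375) and stood at 0.20 ± 0.12 in GPI-PLD cells. With all probe sets averaged the adjusted p of RELA was 0.11. Of 11 other inhibitors and feedback genes, TAX1BP1, a partner of A20, rose in GPI-PLD cells (0.64 ± 0.09, adjusted p 6.23e-05) and in LacZ cells (0.41 ± 0.09, adjusted p 0.00749). ITCH, a ubiquitin ligase of the A20 complex, rose in GPI-PLD cells (0.65 ± 0.11, adjusted p 0.000373) and stood at 0.31 ± 0.11 in LacZ cells (adjusted p 0.0992). The differences between the viruses in these time effects did not pass by limma. They were 0.30 ± 0.18 for IKBKG (adjusted p 0.718), -0.38 ± 0.17 for RELA (adjusted p 0.629) and 0.33 ± 0.16 for ITCH (adjusted p 0.637). Averaging the probe sets of TAX1BP1 ended both of its calls (adjusted p 0.0907 and 0.203).

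The mRNAs of many chemokines and of LIF carry AU-rich elements that binding proteins use to shorten their life. Of 10 tested genes of such proteins 0 were called in GPI-PLD cells by limma, with 3 at unadjusted p under 0.05, and 4 rose in LacZ cells. ZFP36, which encodes tristetraprolin, rose in LacZ cells (938 at 12 h and 418 at 6 h, 1.13 ± 0.24, adjusted p 0.00462) and stood at 0.60 ± 0.24 in GPI-PLD cells. Its relative ZFP36L1 rose in LacZ cells by 0.91 ± 0.18 (adjusted p 0.00226), TIAL1, a stress granule protein, by 0.56 ± 0.12 (adjusted p 0.00399) and ZFP36L2 by 0.37 ± 0.09 (adjusted p 0.0112). In GPI-PLD cells they stood at 0.31 ± 0.18, 0.37 ± 0.12 and -0.07 ± 0.09. The differences between the viruses in these time effects did not pass (ZFP36 -0.53 ± 0.35, adjusted p 0.761, and ZFP36L2 -0.45 ± 0.13, adjusted p 0.382). With probe sets averaged, ZFP36L1 had an adjusted p of 0.427 and TIAL1 of 0.511, and without LacZ 12 h replicate 2 ZFP36L2 had 0.0516. These averages take in dim sets. In LacZ cells the further sets of ZFP36L1 stood at 0.67 ± 0.29 (mean signal 326.4), 0.04 ± 0.28 (44.5) and -0.27 ± 0.33 (57). Those of TIAL1 stood at 0.65 ± 0.22 (428.6) and -0.41 ± 0.48 (187.3).

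Of 6 receptor genes 2 were tested, and ACKR2, a decoy receptor that removes CCL2 and other CC chemokines, rose in GPI-PLD cells (395 at 12 h and 130 at 6 h, 1.30 ± 0.31, adjusted p 0.00877). It stood at -0.36 ± 0.31 in LacZ cells, and the difference between the viruses had an adjusted p of 0.376. CCR6, the receptor of CCL20, had signals of 260 and 267 at 12 h and 6 h in GPI-PLD cells and of 244 and 419 in LacZ cells (log2 -0.66 ± 0.28, adjusted p 0.179). Of 7 other tested chemokine genes 0 were called by limma with time in either virus, with 0 in GPI-PLD and 1 in LacZ cells at unadjusted p under 0.05. CCL16, a liver chemokine, stood at 0.80 ± 0.29 in LacZ cells (adjusted p 0.104), and CXCL12, a ligand of CXCR4, at -0.35 ± 0.26 in GPI-PLD cells. Of 15 tested genes of LIF and IL-6 family signalling, IL6ST, which encodes gp130, was the 1 called, in LacZ cells. IL11, another cytokine of the family, stood at 0.69 ± 0.23 in GPI-PLD cells (adjusted p 0.0592).

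**Figure D4:**
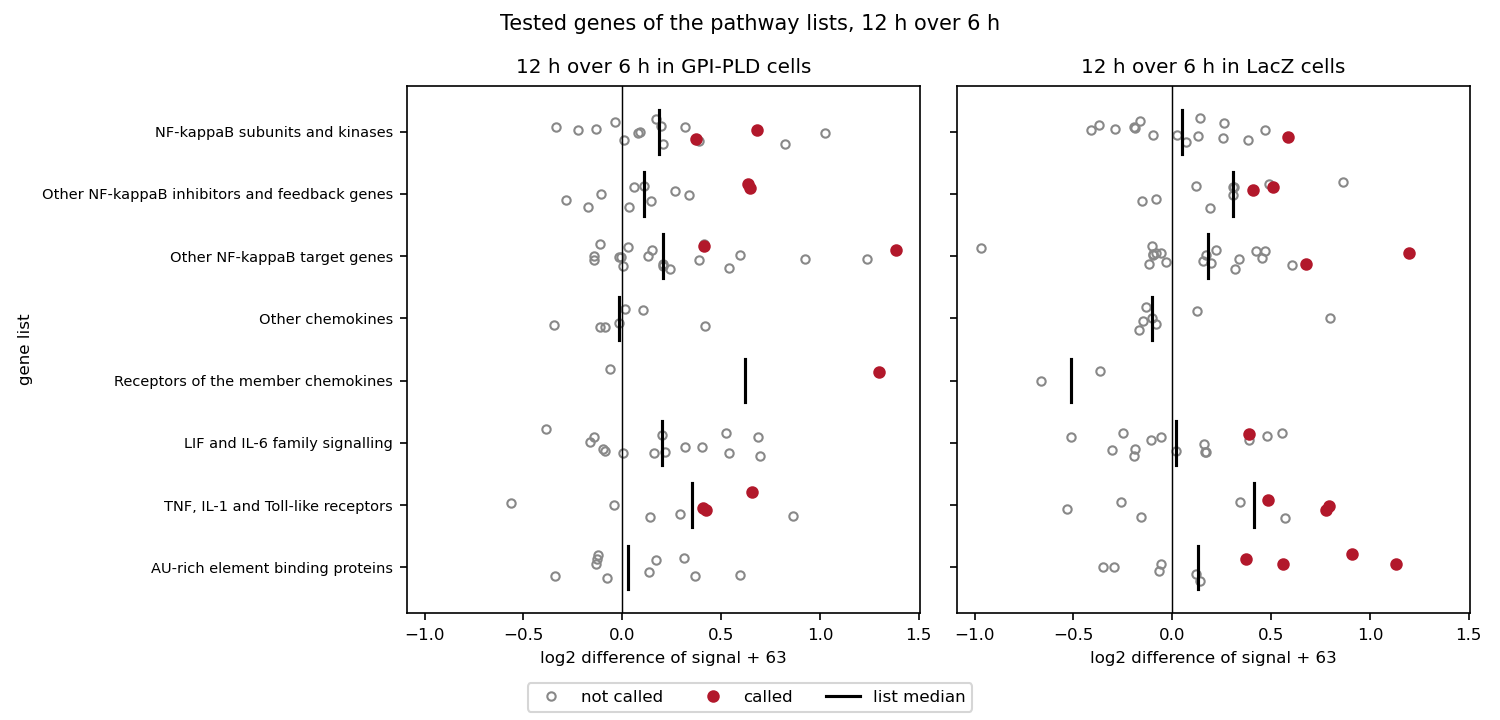
Log2 difference of signal + 63 at 12 h over 6 h (x) of the tested genes of each pathway list (y), in GPI-PLD cells (left) and LacZ cells (right). Each point is a gene, filled where its adjusted p was under 0.05, and the black line is the list median. The rightmost filled point of both panels is IER3 (1.39 and 1.20), and all filled points lie above 0.

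Several pathway calls lay close to the threshold and were lost in some alternatives, with log2 differences of the same sign. IL6ST rose in LacZ cells by 0.39 ± 0.10 (adjusted p 0.0235), a call lost without LacZ 6 h replicate 2 (0.0876) or 3 (0.0737) and without LacZ 12 h replicate 1 (0.0924), 2 (0.0733) or 4 (0.0517), as well as with averaged probe sets (0.275), with all probe sets tested (0.0542) and with plain eBayes moderation (0.0791). In those fits its log2 difference was 0.33 to 0.39. TAB2, an adaptor of the kinase TAK1, rose in GPI-PLD cells by 0.37 ± 0.10 (0.0244), lost without GPI-PLD 6 h replicate 3 (0.0931) or 12 h replicate 1 (0.0682) or 4 (0.0743), with averaged probe sets (0.196, log2 difference 0.24) and with all probe sets tested (0.0519). TNFRSF1A rose in GPI-PLD cells by 0.41 ± 0.12 (0.0339), lost without GPI-PLD 6 h replicate 1 (0.0531), 2 (0.105) or 3 (0.138) and 12 h replicate 2 (0.0835), 3 (0.0665) or 4 (0.0601), with log2 differences of 0.32 to 0.43. It was also lost with scaling to the 75th percentile (0.0502), all probe sets (0.0711), plain eBayes moderation (0.0647) and the compared arrays alone (0.061). TNFRSF12A, the receptor of TWEAK, rose by 0.42 ± 0.12 in GPI-PLD cells (0.0274) and 0.49 ± 0.12 in LacZ cells (0.0138). Its GPI-PLD call was lost without 6 h replicate 2 (0.0977) or 3 (0.0815) and 12 h replicate 1 (0.0506), 2 (0.0718) or 4 (0.0765) of that virus, with all probe sets (0.0601) and with plain eBayes moderation (0.0624), and its LacZ call without LacZ 6 h replicate 1 (0.0585) or 12 h replicate 4 (0.0534). RNF11, a partner of A20, rose in LacZ cells by 0.51 ± 0.15 (0.0444), a call lost in 17 of 27 alternatives, in which the log2 difference was 0.38 to 0.51. For RNF11 these were, among others, the omission of GPI-PLD 12 h replicate 4 (0.0504), of LacZ 12 h replicate 1 (0.158) or 2 (0.0995), of a GPI-PLD 6 h array (0.054, 0.0509, 0.0541 and 0.0535 for replicates 1 to 4) or of LacZ 6 h replicate 2 (0.107) or 3 (0.163). Numbers in parentheses here are adjusted p-values from limma.

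The genes whose pattern was most like a member were found by the root mean square difference of log2 signals, centred per gene, over the 16 arrays. CCL20 was nearest to SLC3A2, an amino acid transporter subunit (0.131), and ASNS, asparagine synthetase (0.143). SLC3A2 had mean signals of 5095 in GPI-PLD and 4792 in LacZ cells at 12 h, and of 2298 and 2176 at 6 h. LIF was nearest to TXNRD1, thioredoxin reductase (0.243), and IFRD1 (0.258), and CXCL8 to MAP1LC3B, an autophagosome protein (0.255), and the kinase gene STK17A (0.264). NFKBIA was nearest to ASRGL1 (0.149) and PSMC4 (0.154), NFKB1 to ATG9A (0.214) and CYP2A6 (0.217), and TNFAIP3 to LASP1 (0.160) and BZW2 (0.161). For comparison the median gene lay 0.618 from CCL20, 0.700 from LIF and 0.641 from CXCL8, but 0.396 from NFKBIA, 0.410 from NFKB1 and 0.365 from TNFAIP3, whose own SDs were 0.289, 0.328 and 0.260.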

How the data were processed

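The authors deposited 1 intensity table of MAS5 signals on a linear scale, per the submitters' processing notes, with 22283 probe sets (68 controls) for 16 arrays. Every array had a 2% trimmed mean of 1000.3 to 1000.4. For scanner and further steps: not given in the sources used here. Of the probe sets 19065 had 1 gene symbol, 1043 several and 2107 none. Replicates were numbered in accession order. Whether they were separate cultures is not stated. If not, p-values cover only the spread between these arrays, which may be technical, and the number of arrays limits the precision.

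Signals were analysed as log2(signal + 63), 63 being their 20th percentile. Per gene the brightest probe set with a single symbol was kept, and tested if its mean log2 value reached the 40th percentile of probe sets. Limma 3.58.1 (R 4.3.3, statmod 1.5.0; lmFit, contrasts.fit, eBayes with trend and robust) fitted 4 group means and 6 contrasts, with Benjamini-Hochberg adjustment over 8102 genes. Probe sets beyond these came from the same fit over 22215 probe sets. The steps were tested on simulated data. Tables and plots used Python 3.11.15, pandas 2.3.3 and matplotlib 3.10.9.

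The members and gene lists were chosen with earlier results of these data known. Named were all members, in each pathway list up to 4 called genes (otherwise up to 2 with the smallest p, of which some are given), the 2 genes most like each member, and the 2 brightest markers of each cell type. PTPRC and CD14 were named after their values were seen. Protein sequences were not used here. Other settings tried were no pseudocount or 4 times it, no filter or one at the 60th percentile, plain eBayes moderation (no trend, not robust), averaged or separate probe sets, scaling to the 75th percentile or quantile normalization, weights per array, the compared arrays alone, and each array left out.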

Additional observations from a re-analysis of the deposited data

Results flagged for a closer look

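In 48 combinations of member probe set and group, an array was marked if its gap to the nearest other array was an unusually large part of the group's range on the log2 scale (above Dixon's 95% critical value for 4 arrays). Chance marks about 1 in 20 groups, and 3 were marked here. On the TNFAIP3 probe set 202644_s_at, LacZ 12 h replicate 2 read 1824.4, above the other arrays of its group at 1353.5 to 1394.3. On the CXCL1 probe set, GPI-PLD 6 h replicate 1 read 25.5, below the others at 93.2 to 109.6, and LacZ 6 h replicate 4 read 129.2, above the others at 53.1 to 60. Without LacZ 12 h replicate 2 the TNFAIP3 difference between the viruses at 12 h was 0.13, against 0.03 with all arrays.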

How the results depend on the processing

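CCL20 and LIF were called higher at 12 h in both viruses under all 27 alternatives, and CXCL8 in GPI-PLD cells under all 25 in which it was tested. These fits reuse the same arrays, on genes picked with such results known, so they are not independent support. Leaving out an array of a group outside the contrast keeps the log2 difference as it was. CXCL8 missed the filter at the 60th percentile and with averaged probe sets, where the count of called members in GPI-PLD cells was 2 and not 3. Over all alternatives the time difference in GPI-PLD cells ranged from 0.95 to 1.59 for CXCL8, 1.03 to 1.17 for CCL20 and 1.09 to 1.54 for LIF. In LacZ cells it ranged from 0.38 to 0.68 for CXCL8, 0.96 to 1.12 for CCL20 and 0.72 to 1.10 for LIF. No alternative called NFKBIA, NFKB1 or TNFAIP3 with time, or any member between the viruses. With single arrays left out, the virus difference at 6 h ranged from -0.30 to -0.09 for CXCL8, -0.44 to -0.07 for LIF and -0.06 to 0.29 for NFKB1, and that of NFKB1 at 12 h from -0.02 to 0.28. The sign turned in at least 1 alternative for CCL20, NFKB1 and TNFAIP3 at 6 h and for NFKB1 and TNFAIP3 at 12 h. Called pathway genes numbered 8 to 12 in GPI-PLD and 10 to 17 in LacZ cells, against 10 and 13 of 86 in the main fit. The share called over all genes also moved with the setting. In GPI-PLD cells it was 7.95% with plain eBayes moderation, against 4.6% up and 5.07% down in the main fit. For LacZ cells the values were 5.15%, against 3.64% up and 3.25% down. Whether the range of called pathway genes only follows that share was not tested. For the difference of the GPI-PLD effect, leaving out single arrays gave 0 to 1 called pathway genes, the 1 without LacZ 6 h replicate 1. With averaged probe sets the TNFAIP3 time difference in LacZ cells was 0.17 in place of -0.15. No paired analysis was possible because the labels give no replicate numbers. Dim probe sets limit what can be said of CXCL1, CXCL2, CXCL3 and CCL2.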
